A study of Mus musculus with 146 samples.

Results

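The cells described here are newborn mouse germ cells in which the follicle factor Sohlh1 was on and the egg coat gene Zp3 was not yet on, ranked by how much Hormad1 RNA they still held. The study asked how germ cells change as they leave their cysts and form follicles, and to that end it sequenced single germ cells from the ovaries (n = 5) of female C57/BL6J pups of 1 litter, taken at day 0.5 (P0.5), by Smart-seq2, which amplifies polyadenylated RNA. The labels give no treatment and no engineered allele, ovaries were pooled, and cells were picked by eye under a microscope, with any cDNA positive for the pregranulosa marker Foxl2 dropped before sequencing. The rule took cells with at least 1 TPM (a transcript level corrected for transcript length and for the total of the cell) of the germ cell RNA helicase Ddx4, at least 100 TPM of Sohlh1 and less than 10 TPM of Zp3. It found 78 of the 146 libraries, which the study describes as 146 single germ cells. The 78 were counted here as 71 cells, since 7 pairs of libraries looked like repeats of the same cell (below), and each pair was averaged. The 71 cells were ranked by Hormad1 and split into a Hormad1-low group of 23 cells, a middle group of 25 and a Hormad1-high group of 23, called low, middle and high below. Outside the rule were 20 cells with less Sohlh1 (Sohlh1-low cells), 47 cells with at least 10 TPM of Zp3 (zona cells) and 1 cell without Ddx4.

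HORMAD1 is a HORMA-domain protein that coats the axes of meiotic chromosomes in early prophase. It helps the break machinery around SPO11 to act, favours pairing with the homologous chromosome, and marks axes that have not synapsed, and it is stripped from axes by TRIP13 once the synaptonemal complex has formed. In the mouse ovary, prophase begins before birth, and around birth oocytes reach diplotene and enter a long arrest while SOHLH1, FIGLA, NOBOX and LHX8 switch on genes of the primordial follicle and, later, of the zona pellucida. The cells here held RNA of both programmes at once.

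The promoters shown are 3, those of Hormad1, of Meioc, which had the largest ratio between the groups among the genes named below, and of Tex101, whose level followed that of Hormad1 most closely. Each is the 250 bases before the first RefSeq start of the gene (GRCm38.p6), 5′ to 3′ on the gene's strand, at chr3:95559427-95559676 (plus strand), chr11:102665335-102665584 (plus) and chr7:24672051-24672300 (minus). Capitals mark the E-box CACGTG and the E2F6-type letters TCCCGC, the second also as its complement GCGGGA.
Hormad1: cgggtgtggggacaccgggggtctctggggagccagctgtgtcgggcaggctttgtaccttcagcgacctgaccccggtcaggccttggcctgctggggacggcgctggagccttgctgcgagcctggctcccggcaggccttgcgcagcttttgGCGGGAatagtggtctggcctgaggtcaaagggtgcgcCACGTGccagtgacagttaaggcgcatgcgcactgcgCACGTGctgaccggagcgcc
Meioc: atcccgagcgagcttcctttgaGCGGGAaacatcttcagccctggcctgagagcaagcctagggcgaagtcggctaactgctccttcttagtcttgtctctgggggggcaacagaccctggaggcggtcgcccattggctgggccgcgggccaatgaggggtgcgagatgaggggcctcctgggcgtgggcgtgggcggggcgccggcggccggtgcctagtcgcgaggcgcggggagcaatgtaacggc
Tex101: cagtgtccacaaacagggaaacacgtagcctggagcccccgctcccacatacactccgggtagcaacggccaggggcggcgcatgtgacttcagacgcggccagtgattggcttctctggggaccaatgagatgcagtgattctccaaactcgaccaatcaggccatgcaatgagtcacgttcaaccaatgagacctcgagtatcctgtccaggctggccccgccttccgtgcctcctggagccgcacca
The Hormad1 window holds 2 copies of CACGTG, which end 52 and 15 bases before the start, and 1 GCGGGA that ends 90 bases before it. CACGTG is found in 6.05% and TCCCGC in 16.9% of the windows of all 27025 genes with one, and in 8.51% and 29.9% of the windows of the 9421 tested genes that have one. The Meioc window holds 1 GCGGGA and no CACGTG, and the Tex101 window holds neither. The looser E-box CANNTG, of which CACGTG is a special case, occurs 3 times in the Hormad1 window, once in that of Tex101 and not in that of Meioc, against 66.04% of all windows with at least 1. The letters CCTCAG, the core bound by STRA8, occur once before Hormad1 (22.2% of all windows hold them), and the Nobox element TAATTG occurs in none of the 3 (7.34% of all). Both strands were searched, and a match is a description of letters only.

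Before the levels, the libraries need a note. In 7 pairs (S45 and S140, S46 and S141, S58 and S142, S62 and S143, S63 and S144, S123 and S145, and S124 and S146, by the numbers in the labels) the correlation of log2(TPM + 1) over 11289 genes was 0.984 to 0.993, against a median of 0.534 and a highest value of 0.778 over the other 10578 pairs of libraries. Their spike-in levels correlated at 0.994 to 1.000, against a highest value of 0.978 elsewhere. All 14 libraries met the rule, and 3 of the 7 cells fell in the high group, 2 in the middle and 2 in the low group. Cells S13, S14 and S66 of the low group and cell S17 of the high group had no correlation of 0.5 or more with any other cell. Reads assigned to genes were 4103144 to 12038930 per cell in the low group and 6135441 to 17440741 in the high group, with medians of 8784260 and 8840116, and 1 read was worth 0.0206 to 0.167 TPM by cell. The labels tie no cell to an animal or plate, so the cells form 1 sample and no test was made between the groups.

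The germ cell label was checked on markers. Ddx4, which the rule used, was 53.2 to 542 TPM in the low group and 33.01 to 516 in the high group. Dazl, an RNA-binding protein of germ cells that the rule did not use, was 182 to 1000.1 TPM in the low group and 351 to 1111 in the high group. Of 12 pregranulosa markers, 2 reached a mean of 1 TPM in either group, and their sum had a median of 0.877 TPM in the low group (0 to 82.1) and 0.807 in the high group (0 to 50.8). Foxl2 itself was at a median of 0 in both and at most 7.01 TPM, and it reached 15.002 TPM in 1 of the 25 middle cells. Of 7 stroma markers 2 reached that mean, with sums of 0 to 78.3 TPM in the low group and 0 to 101.3 in the high group, led by Nr2f2, whose means were 4.47 and 15.1 TPM (ratio 1.55 on the log2 scale), a difference whose part in the results was not tested, and of 6 endothelial markers none did, Esam being at 0 in both groups.

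Hormad1 spanned 2 orders of size among cells that all had Sohlh1. Its TPM was 19.7 to 358 in the low group (median 257), 371 to 572 in the middle (median 461) and 575 to 3503 in the high group (median 726). The groups are cut from a continuous range: the cells at either side of the lower cut had 358 and 371 TPM, and those at the upper cut 572 and 575. The highest value, 3503 TPM, was that of cell S17, one of the cells that stand apart. The Sohlh1-low cells reached 421 to 3255 TPM (median 1218), above the median of the high group, and the zona cells 2.53 to 748 (median 171), below that of the low group, and both ranges overlap those of the groups. These values chose the groups and are a description. Sohlh1, which the rule limits from below, had a median of 317 TPM in the low group, 256 in the middle and 363 in the high group, with 100.5 to 853 and 107.6 to 968 TPM in the outer groups. In the 6 cells with the most Hormad1 (1107 to 3503 TPM) it was 107.6 to 357 TPM, under the median of the high group. At the limits of the rule, the member with the least Sohlh1 had 100.5 TPM and the nearest cell outside 80.1, the member with the most Zp3 had 4.14 TPM and the nearest cell outside 10.3, and the member with the least Ddx4 had 33.01 TPM and the cell outside 0. The length that Salmon gave Hormad1 had a median of 587 bases (378 to 659), which raises its TPM against its reads. Ranking by CPM, the share of reads without a correction for length, kept 19 of 23 cells in the high group and 22 of 23 in the low group.

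**Figure D1:**
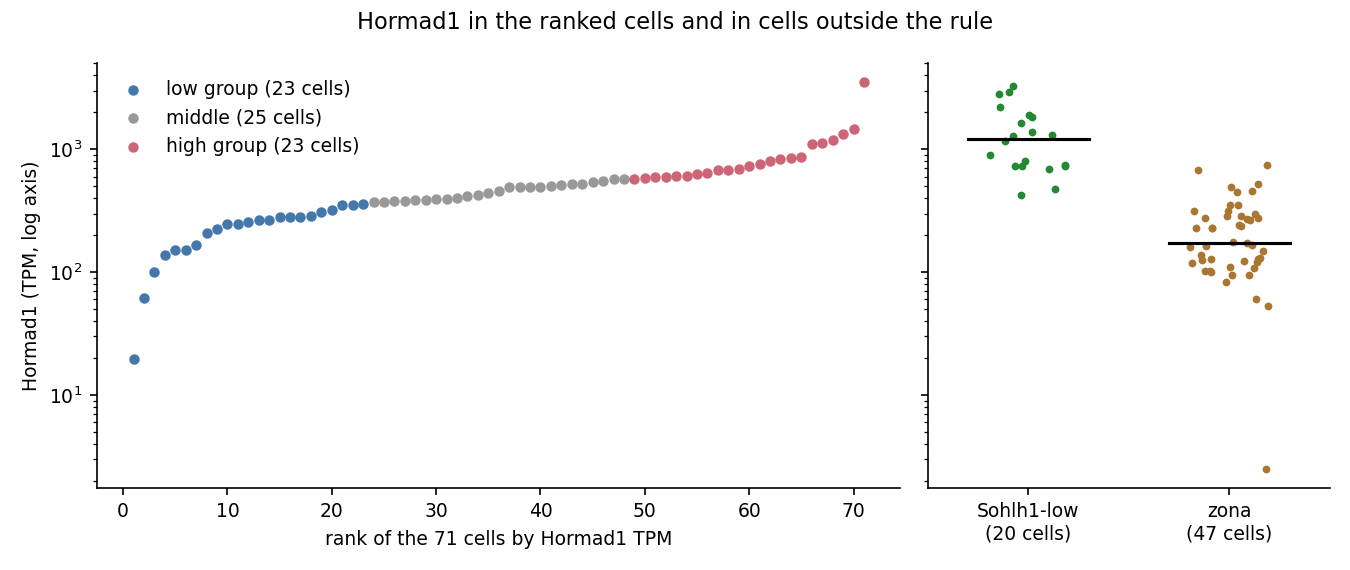
Hormad1 TPM on a log axis: on the left, 1 point per cell in order of rank with the groups in colour, and on the right the 20 Sohlh1-low and 47 zona cells with their medians as bars (1218 and 171 TPM). The ranked cells form a continuous series from 19.7 to 3503 TPM without a gap at the cuts.

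Among coding genes, 12031 had a mean of 1 TPM or more in the low or the high group. Over these, the ratio of mean TPM (with 1 TPM added to both means) was at least 2-fold higher in the high group for 1411 genes (11.7%) and at least 2-fold lower for 1443 (12%). These 12031 genes are called tested below, although no statistical test was made, and the 2 shares are the background against which each list below is read. Scaled per spike-in TPM, the split was 1682 higher and 1149 lower. The median log2 ratio of high over low was 0.052, and 0.16 per spike-in TPM. No gene had low and high values that did not overlap. A call often rested on single cells, since 459 higher and 431 lower genes kept it with every cell left out in turn. Below, higher and lower mean past 2-fold in the mean, high group over low group, and every ratio is on the log2 scale.

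Genes of meiosis were, on the whole, more abundant where Hormad1 was. Of 74 meiotic genes tested (Hormad1 itself left out), 16 were higher, 5 were lower and 60 had a ratio above 0, with a median of 0.33 against 0.052 for all genes and 53.4% of all genes above 0. The share called higher can be read against 11.7%, and the share called lower against 12%. Of the 16, 9 also kept the call with each cell left out and with medians past 1.5-fold in the same direction: Meioc, Dmc1, Ccnb3, Tex11, Meiob, Ccdc36, Hormad2, Spo11 and Dmrtc2. Of the 5 lower, 2 did so, and of all genes tested 1.18% met this rule as higher and 1.28% as lower. The ratio of all meiotic genes stayed above 0 in every alternative run, from 0.21 with 2 groups in place of 3 to 0.51 with means of log values.

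The list of meiotic entry and early prophase, part of the meiotic genes above, also holds broader germ cell genes such as Tex101, Taf7l and Dazl. It was chosen with earlier results of these data known, and Taf7l is among the genes by which the study clustered its cells. The list had a median of 0.75, with 15 of 16 above 0, 4 higher and none lower. This median was 0.31 with 2 groups in place of 3 and 0.53 with Sohlh1 of at least 200 TPM. Meioc, which with YTHDC2 keeps germ cells in the meiotic programme, was 0 to 0.633 TPM in the low group (median 0), had a median of 16.96 in the middle, and was 0 to 202 TPM in the high group (median 18.7). At 10 TPM or more it was found in 0 of 23 low cells (exact 95% interval 0 to 14.8%), 13 of 25 middle cells (52%, 31.3 to 72.2%) and 12 of 23 high cells (52.2%, 30.6 to 73.2%), intervals that cover counting error only. No low cell reached 1 TPM, while the middle and the high cells had like shares. Its ratio of 5.23 rests on a low mean of 0.077 TPM, under the 1 TPM added. In the cells outside the rule its mean was 334 TPM in Sohlh1-low cells and 2.84 TPM in zona cells.

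Tex101, a membrane protein of germ cells, was 4.79 to 671 TPM in the low group (median 379), had a median of 495 in the middle and was 174 to 1912 in the high group (median 773). Its ratio of 1.04 is just past 2-fold and is 0.94 without cell S30. Ccnb3, a cyclin of meiotic prophase, was 0 to 242 TPM in the low group (median 14.5) and 0 to 349 in the high group (median 87.2), with a ratio of 1.80. At 10 TPM or more it was found in 12 of 23 low and 18 of 23 high cells. Dmrtc2, a DM-domain transcription factor, had medians of 30.1 and 84.6 TPM and a ratio of 1.25. Taf7l, a germ cell subunit of the TFIID family, had medians of 804, 1091 and 1296 TPM from the low to the high group, with a ratio of 0.81. Scml2 and Adad1 had ratios of 0.84 and 0.94. Stra8, the inducer of meiosis, had a median of 0 in both groups and at most 28.9 TPM, so at P0.5 neither group held much of it.

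Of 7 tested genes of meiotic break formation, 2 were higher (Spo11 and Ccdc36), 1 was lower (Prdm9) and 6 were above 0, with a median of 0.29. The median was 0.029 with cells ranked within 2 strata of Sohlh1, where that of all genes was 0.040, and 0.076 with Sohlh1 of at least 200 TPM. In the other direction, it was 0.64 with means of log2 values, 0.67 with medians in place of means and 0.55 in cells with at least 5000000 reads. Spo11, the enzyme that cuts DNA to start recombination, was 0 to 106.95 TPM in the low group (median 0.029) and 0 to 164 in the high group (median 34.9), with a ratio of 1.30. Dmc1, the meiotic recombinase, was 0 to 21.5 TPM in the low group (median 0.48) and 0 to 123.5 in the high group (median 20.4), with a ratio of 2.37. It reached 10 TPM in 4 of 23 low cells (17.4%, 4.95 to 38.8%), 9 of 25 middle cells and 13 of 23 high cells (56.5%, 34.5 to 76.8%). Its single-strand partner Meiob had medians of 15.4 and 116.6 TPM and a ratio of 1.47, and Spata22, which binds MEIOB, 39.997 and 99.6 TPM and 0.90. Tex11, an X-linked crossover factor, had medians of 47.6 and 127.1 TPM and a ratio of 1.57, which is 0.96 without the 4 cells that stand apart. Ccdc36 (Iho1), which recruits the break machinery to axes through HORMAD1, had medians of 0.14 and 0.81 TPM and a ratio of 1.44, or 0.44 when cells were ranked within 2 strata of mitochondrial share.

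Not all genes of recombination were higher with Hormad1. The 24 tested repair and crossover genes had a median of 0.15. It was 0.38 with medians in place of means, 0.36 with means of log2 values and 0.093 with mitochondrial genes taken out of the total. Of these 24 genes, 5 were higher and 3 lower. Among the lower ones were Msh5, a meiotic MutS homologue (means 18.7 and 5.86 TPM, ratio -1.52, -0.98 without cell S66), and the nuclease gene Mus81 (ratio -1.11, and -0.88 without S66). Prdm9, which sets where breaks fall, had means of 34.2 and 13.3 TPM and a ratio of -1.30. The crossover genes Rnf212 and Msh4 had ratios of 0.23 and 0.29. The calls for Msh5, Mus81 and Prdm9 ended with CPM in place of TPM, where the ratios were -0.66, -0.97 and -0.92.

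Axis genes had few calls. Of 12 tested axis genes, Hormad2 alone was higher and Pds5b, a cohesin regulator, alone was lower (-1.10, and -0.64 without cell S41). The median of 0.15 was 0.48 with medians in place of means, 0.018 ranked by CPM and 0.0084 within the strata of mitochondrial share. Hormad2, the paralogue of Hormad1, was 0 to 99.7 TPM in the low group (median 0.074), had a median of 35.9 in the middle and was 0 to 226 in the high group (median 37.8), with a ratio of 1.33. It reached 10 TPM in 9 of 23 low cells (39.1%, 19.7 to 61.5%) and 15 of 23 high cells (65.2%, 42.7 to 83.6%). The meiotic cohesin gene Smc1b was 68.8 to 777 TPM in the low group (median 275) and 196 to 888 in the high group (median 413), with a ratio of 0.69. Sycp3, the main axis protein, remained abundant in both, at medians of 2919 and 3929 TPM with a ratio of 0.43, and was lower on average in the Sohlh1-low cells (2169 TPM) than in either group. Trip13, the ATPase that removes HORMAD proteins, had medians of 35.1 and 32.5 TPM and a ratio of -0.36.

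In the centre of the synaptonemal complex all 7 genes tested were above 0, with a median of 0.31, and 1 was higher. That gene, Syce1l, was at 0 in every low cell and reached 230 TPM in 1 high cell with a median of 0, and no fold is given for it. Sycp1, the transverse filament, had medians of 1005 and 1248 TPM and a ratio of 0.23, Syce1 220 and 306 TPM and 0.51, and Tex12 221 and 376 TPM and 0.50. Of 8 telomere attachment genes all were above 0 and 3 were higher, with a median of 0.62. The 3 were the nuclear envelope genes Sun1 (medians 0.87 and 9.79 TPM), Sun2 and Ccdc155 (medians 0 in both), with ratios of 1.20, 1.87 and 1.60, or 0.89 for Sun1 without cell S119 and 0.81 for Ccdc155 without S17. Without the 4 cells that stand apart the median of this list lay 0.20 above that of all genes, against 0.57 with them. With CPM in place of TPM the median of this list was 0.34. Of 18 genes of the piRNA pathway, which silences transposons in germ cells, 13 were above 0 with a median of 0.24. That median was 0.10 ranked by CPM, 0.11 with 2 groups in place of 3 and 0.50 with means of log2 values. In that list Ddx25 alone was higher (medians 20.6 and 53.1 TPM, ratio 1.01, and 0.93 without cell S30), Tdrkh had 0.77 and Asz1 0.65, and none was lower.

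**Figure D2:**
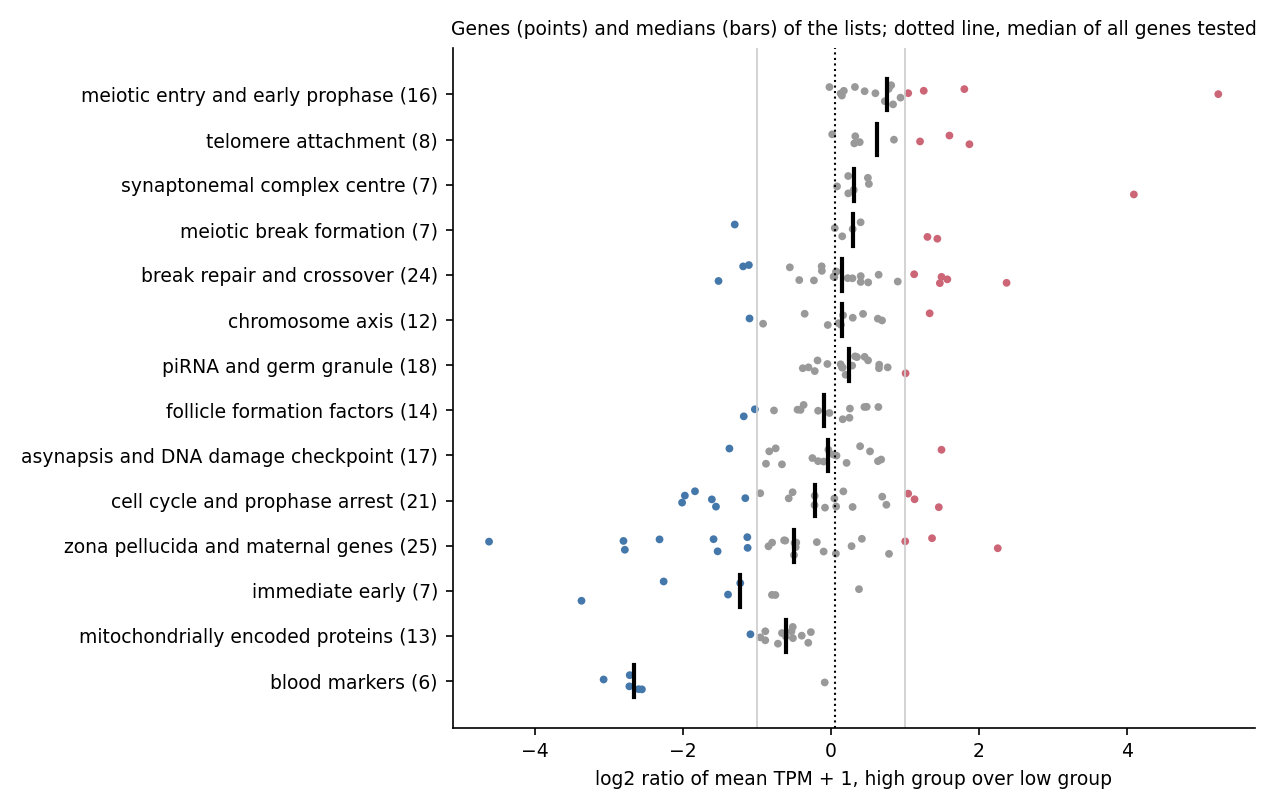
Log2 ratio of mean TPM (1 added), high group over low group, for each gene (points) of 14 lists with the number tested in brackets; black bars are medians, the dotted line is the median of all genes (0.052) and grey lines mark 2-fold. All but 1 of the 16 genes in the meiotic entry list lie above 0 with a median of 0.75, and the 25 maternal genes have a median of -0.50 (the far point of the synaptonemal complex is Syce1l, at 0 in every low cell).

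Follicle factors did not divide the groups. Of 14 tested (Sohlh1 left out), none was higher, 2 were lower and 6 were above 0, with a median of -0.10 that was 0.11 per spike-in TPM, below the 0.16 of all genes on that scale as -0.10 is below 0.052. Figla, a helix-loop-helix activator of zona genes, was 9.31 to 3213 TPM in the low group (median 1615) and 395 to 3849 in the high group (median 1464), with a ratio of 0.16. Nobox was 0 to 567 (median 230) and 10.1 to 771 TPM (median 274), with a ratio of 0.48. Lhx8 had medians of 601 and 755 TPM and a ratio of -0.020. These 3 homeobox and helix-loop-helix genes overlapped almost fully between the groups, and each was lower in the Sohlh1-low cells, at means of 507, 74.1 and 98.1 TPM. Foxo3, which holds primordial follicles at rest, had medians of 51.7 and 90.5 TPM and a ratio of 0.64. Kit, the receptor of oocyte growth, had medians of 179 and 113.3 TPM and a ratio of -0.41, and Id2, an inhibitor of helix-loop-helix factors, 777 and 275 TPM and -0.45 (ratio of medians -1.50), and neither was past 2-fold in the mean. The 2 called genes were scarce: Jag1, a Notch ligand, at means of 10.3 and 3.98 TPM, and Cdkn1b, a cell cycle inhibitor, at 2.91 and 0.917 TPM. Their ratios of -1.18 and -1.03 were -0.88 and -0.44 without cell S113, and that of Cdkn1b was 0.32 with 2 groups in place of 3.

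Zona pellucida and maternal genes, which oocytes store for growth and the early embryo, leaned the other way from meiotic genes. Of 25 tested, 8 were lower, 3 higher and 7 above 0, with a median of -0.50. In 7 of the 8 lower genes the median of the low group was 0, so that a few cells carried the mean. Padi6, of the cytoplasmic lattices, is an example, with means of 134.9 TPM in the low and 4.53 in the high group, a median of 0 in both, and 10 TPM or more in 4 of 23 low cells and 1 of 23 high cells. Nlrp5, of the maternal complex, was higher in the mean (83.04 against 16.6 TPM) with medians of 0.043 and 0.030. Members found at 10 TPM or more in most cells went both ways. Tle6, of the maternal complex, reached 10 TPM in 18 of 23 low and 21 of 23 high cells with medians of 231 and 202 TPM, and Ooep, of the same complex, in 9 and 16 cells with medians of 5.03 and 18.4 TPM. Cpeb1, a regulator of poly(A) tails, had medians of 239 and 272 TPM. Ybx2, an RNA-binding protein that stores maternal mRNA, was 151 to 1593 TPM in the low group (median 681), had a median of 326 in the middle and was 19.9 to 1391 in the high group (median 349), with a ratio of -0.79. Ccno, a cyclin-like protein, was 0 to 841 TPM in the low group (median 218) and 0 to 478 in the high group (median 87.1), with a ratio of -1.13, and -0.99 without cell S122. Dppa3, a maternal factor that guards the zygote's methylation, had medians of 402 and 186 TPM and a ratio of -0.48. The median of this list was 0 when ratios were taken of medians and -0.83 with 4 groups in place of 3. With single cells left out it ranged from -0.64 without cell S15 to -0.30 without cell S113.

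**Figure D3:**
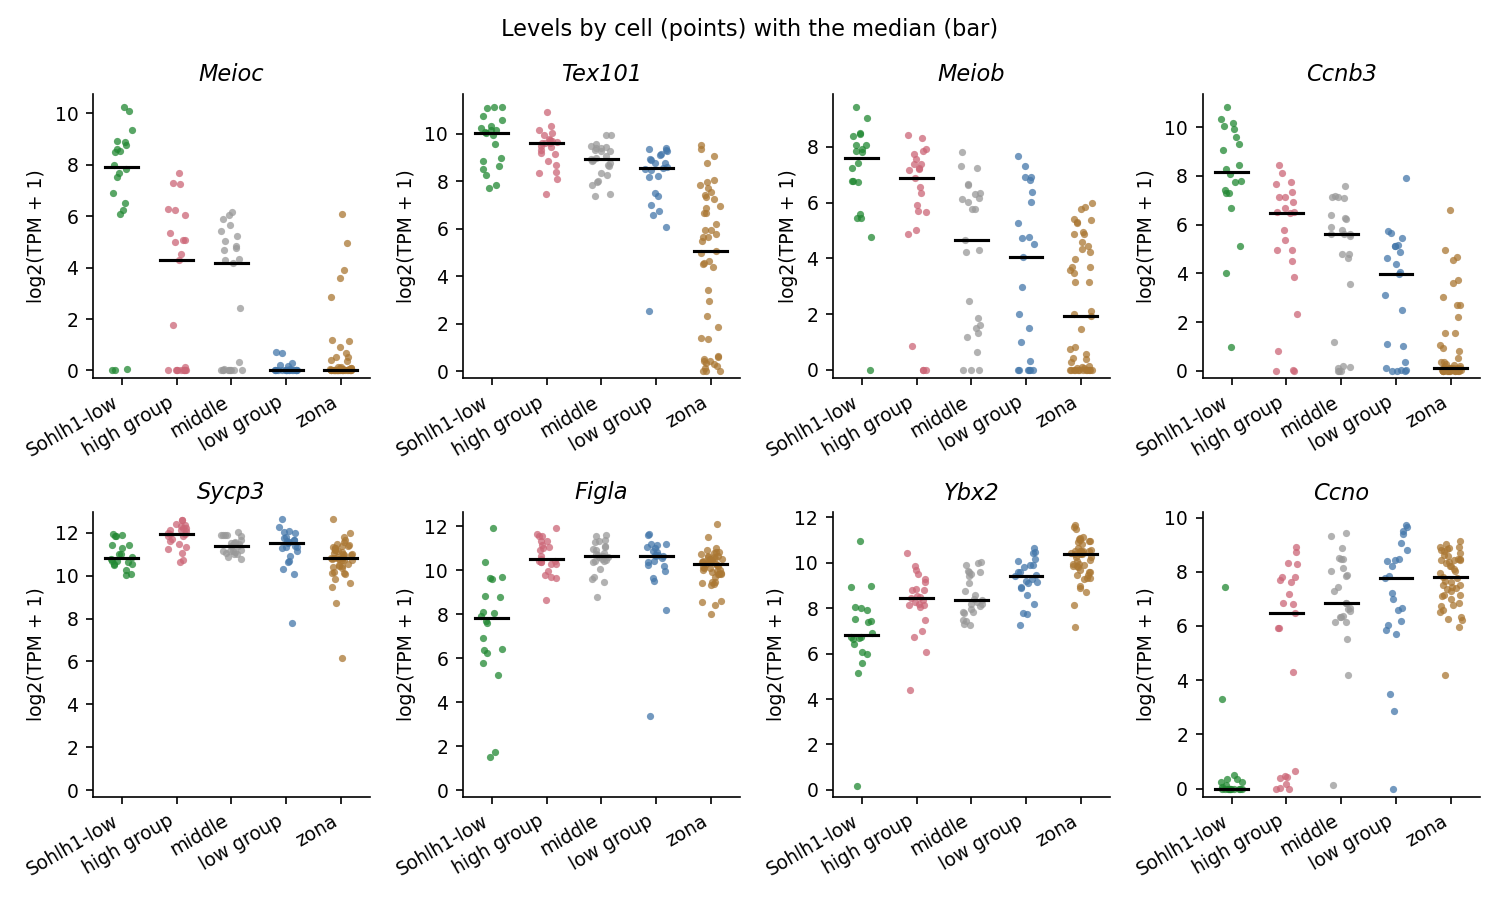
Levels of 8 genes as log2(TPM + 1), 1 point per cell with the median as a bar, in Sohlh1-low cells, the high, middle and low groups by Hormad1, and zona cells. Meioc was at most 0.633 TPM in every low cell, Tex101, Meiob and Ccnb3 had lower medians from left to right, Figla was level over the groups, and Ybx2 and Ccno had higher medians in the low group (681 and 218 TPM) than in the high group (349 and 87.1 TPM).

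Genes of the cell cycle and the arrest were mixed. Of 21 tested, 3 were higher and 6 lower. The median of -0.22 was 0 with medians in place of means, -0.098 within 2 strata of spike-in TPM, -0.41 with CPM and -0.40 with all 78 libraries. The 3 were the mitotic genes Top2a (medians 3.98 and 11.9 TPM, ratio 1.46), Plk1 (17.2 and 33.6 TPM, 1.13) and Cdc20 (25.5 and 91.3 TPM, 1.04), and cyclin Ccnb2 had a ratio of 0.75. Lower were regulators of oocyte meiosis such as Wee2 (means 25.2 and 7.93 TPM), Mos (8.12 and 1.55 TPM) and Fbxo43 (25.6 and 10.9 TPM), and Aurkb, all with medians under 4 TPM. Without cell S17, Plk1 and Cdc20 were short of 2-fold, at 0.90 and 0.89, and Wee2 was at -0.66 without S14 and Fbxo43 at -0.90 without S110. Of 17 genes of the asynapsis and DNA damage checkpoint, in which HORMAD1 acts upstream, 1 was higher, 1 lower and 8 above 0, with a median of -0.035 that was 0.23 per spike-in TPM. Brca1, which loads ATR on unsynapsed axes, had a ratio of 1.49 that was 0.81 without cell S17. H2afx, whose phosphorylated form marks breaks, had medians of 125 and 195 TPM and a ratio of 0.68, and Chek2 had -0.17. Trp63, the guardian of arrested oocytes, had medians of 30.4 and 0.23 TPM and a ratio of -0.75. The shares of cells with Trp63 at 10 TPM or more differed less than its medians, at 13 of 23 low, 12 of 25 middle and 10 of 23 high cells.

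Of 16 genes of the Bcl2 family and caspases, 2 were higher (the BH3-only genes Bad and Bid) and 4 lower, with a median of -0.47 that turned to 0.18 when cells were ranked within 2 strata of mitochondrial share. None of the 4 lower calls held with each cell left out in turn. Bid had a ratio of 1.37, which was 0.65 without cell S17 and -0.039 without the 4 cells that stand apart, and Bad had means of 6.56 and 19.5 TPM. Bax, the most abundant of them, had medians of 553 and 561 TPM. Of 21 tested genes of glycolysis and lactate, 2 were higher and 4 lower with a median of 0.17. This median turned to -0.034 with 2 groups in place of 3, -0.082 with Sohlh1 of at least 200 TPM and -0.10 within the mitochondrial strata. Here Pkm, the most abundant of these in the high group, had medians of 334 and 491 TPM and a ratio of 0.78. Of 7 immediate early genes, which respond fast to stress and handling, none was higher and 4 were lower, with a median of -1.23 that was -0.47 with means of log2 values and 0 with medians. Ier2, the most abundant, had medians of 40.5 and 0.22 TPM, and Egr1 means of 21.6 and 7.61 TPM. Both calls ended without cell S113, at -0.90 and -0.80, and the other 2 lower calls held with each cell left out.

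The single genes whose level was most like that of Hormad1 over the 71 cells are given by Spearman's rho among 7362 coding genes with a mean of at least 10 TPM. This correlation is a description here, since all cells share 1 preparation and each TPM depends on the rest of its cell, and 95% of these genes lay between -0.25 and 0.31. Tex101 came first (rho 0.50). Next came the RNA helicase Ddx39b (0.49), the ciliary gene Iqcb1 (0.49), the endoplasmic reticulum chaperone Dnajb9 (0.48), the proteasome subunit Psmb1 (0.48), the nuclear pore gene Aaas (0.47), Fopnl (0.47), the disulfide isomerase Pdia6 (0.46), Gc, the vitamin D binding protein (0.46) and the electron transfer flavoprotein Etfa (0.44). Ddx39b was 0 to 208 TPM in the low group (median 90.8) and 50.2 to 467 in the high group (median 212). Gc, better known from liver, was 0 to 86.2 TPM (median 18.1) against 7.82 to 260 TPM (median 62.3). Etfa was 33.98 to 1004 TPM (median 429) against 199.7 to 1426 TPM (median 715), so even for these genes the ranges overlapped. Of the 8 with a promoter window, 1 (Dnajb9) held CACGTG and 4 held TCCCGC.

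Among the 10 genes least like Hormad1 were the mitochondrial complex I genes mt-Nd2 (rho -0.52) and mt-Nd1 (-0.48), followed by Cnpy1 (-0.46), the hydroxylase Asph (-0.45), the translocon subunit Sec61g (-0.40), the mTOR inhibitor Tsc1 (-0.40), the stress response factor Atf4 (-0.40), Fam117b (-0.40) and the nucleoporin Ahctf1 (-0.39). Cnpy1 was 0.062 to 6399 TPM in the low group (median 742), had a median of 273 in the middle and was 0.099 to 1213 in the high group (median 125.6), with a ratio of -1.90. It had means of 27.6 TPM in Sohlh1-low and 942 TPM in zona cells. Atf4 was 0 to 257 TPM in the low group (median 66.6) and 0 to 102.9 in the high group (median 21.3), with a ratio of -1.70. Ranked within 2 strata of mitochondrial share, Cnpy1 had a ratio of -1.60 and Atf4 one of -0.88.

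Genes named for the size of their ratio were 12 in each direction. Staying past 2-fold with any 1 cell left out, and medians past 1.5-fold, were conditions of their choice and not findings. With medians in place of means, 18 of the 24 were past 2-fold. Among the higher ones were Meioc, Mbnl3, Dffb, Xlr5c, Dmc1, Gpr19, Palld, Ppat, Pnck, Aldh6a1 and Ttc21b, with ratios from 2.01 to 5.23. Some were near the floor in the typical high cell, so that part of the cells carried the mean. High-group medians were 0.97 TPM for Dffb, 0.73 for Pnck, 1.58 for Ttc21b, 1.69 for Palld and 4.22 for Ppat. The rest of those listed had high-group medians from 16.6 to 28.5 TPM. Xlr5c, of an X-linked family related to Sycp3 whose near-identical copies make its level uncertain, was 0 to 58.01 TPM in the low group (median 0), had a median of 25.4 in the middle and was 0 to 231 in the high group (median 28.5). Mbnl3, a splicing regulator, had medians of 0.21, 19.2 and 16.6 TPM in the low, middle and high groups. Aldh6a1, a mitochondrial enzyme of valine breakdown, had medians of 0.030, 19.7 and 26.2 TPM, and the orphan receptor Gpr19 had 0, 2.86 and 21.5 TPM. In Xlr5c, Mbnl3 and Aldh6a1, as in Meioc, the middle group was nearer to the high than to the low group by these medians. Without cell S17, the ratios of Mbnl3, Dffb, Palld and Ppat were 2.12, 2.05, 1.27 and 1.27.

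The lower ones were Slc1a3, Snapc4, Zfp408, Wnk3, Hba-a2, Hbb-bs, Ptprj, Hba-a1, Bahd1, Zscan2, Zfp157 and Mcc, with ratios from -3.21 to -2.35. Slc1a3, a glutamate transporter, was 0 to 201 TPM in the low group (median 1.39) and 0 to 3.07 in the high group (median 0.59). Bahd1, a chromatin silencing factor, was 0 to 65.1 TPM (median 7.27) against 0 to 11.9 (median 0), and the zinc finger gene Zfp157 had medians of 9.63 and 0 TPM. Ptprj, a receptor phosphatase, had medians of 4.69 and 0.33 TPM. Apart from the globins these genes were scarce, with low means of 14.1 to 48.1 TPM. Single cells carried part of the size, with ratios of -2.18 for Slc1a3 without cell S47, -2.01 for Snapc4 without S66 and -1.30 for Zscan2 without S14.

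The globins belong to red blood cells, and Hba-a1 and Hba-a2 are near-identical copies whose reads cannot be told apart with certainty. Of 6 blood markers tested, 5 were lower in the high group. The sum of 4 globin genes was 0 to 39446 TPM in the low group (median 106.8), had a median of 273 in the middle and was 0 to 7074 in the high group (median 18.6). Globin RNA differed even between 2 libraries averaged as 1 cell, with Hba-a1 at 0 and 813 TPM in the pair of cell S58. Without cell S85 the ratios of Hba-a1, Hba-a2 and Hbb-bs were -1.06, -1.06 and -1.36, and with 2 groups in place of 3 they were -0.17, -0.10 and -0.15. The white blood cell genes Ptprc and Csf1r had means of at most 1.11 TPM in both groups.

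Mitochondrial RNA was lower where Hormad1 was higher. All 13 mitochondrially encoded protein genes, looked at together after mt-Nd2 and mt-Nd1 had been seen, had a ratio under 0, with a median of -0.61. Of these, 1 was past 2-fold, mt-Nd2 at -1.09, and it was short of 2-fold at -0.96 without cell S14. The mitochondrial genome took 1.74 to 21.1% of reads in the low group (median 7.47%), a median of 6.21% in the middle and 0.214 to 9.08% in the high group (median 5.20%). The number of genes at 1 TPM or more was 4835 to 10457 in the low group (median 8483) and 3208 to 11164 in the high group (median 8376), and spike-ins took medians of 1.22 and 1.38% of TPM. The part of the mitochondrial share, and of globin RNA, in the other differences was not tested. With mitochondrial genes taken out of the total, the meiotic median was 0.29, and with cells ranked within 2 strata of mitochondrial share it was 0.26.

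**Figure D4:**
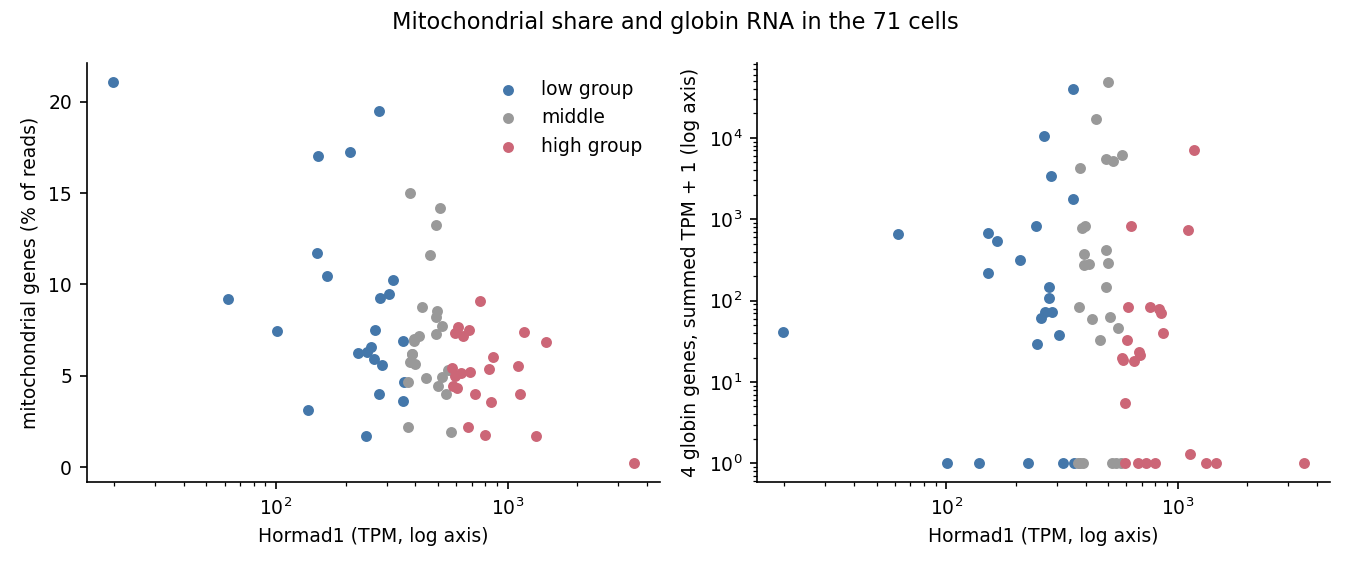
Percent of reads on mitochondrial genes (left) and summed TPM of 4 globin genes plus 1 on a log axis (right) against Hormad1 TPM on a log axis, 1 point per cell, coloured by group. The 23 high cells lie at 9.08% or less, while low cells reach 21.1%, and globin RNA varies from 0 to 48544 TPM over the 71 cells.

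The cells outside the rule give levels that the ranking did not use. Of the 12031 genes, 54.2% had a higher mean in the Sohlh1-low than in the zona cells, against 62.5% of the 1411 genes higher in the high group and 35.9% of the 1443 lower ones. Limited to genes that averaged 10 TPM or more in the low or the high group, these shares were 57.6%, 71.5% and 36.7%. All 16 meiotic genes that were higher had a higher mean in the Sohlh1-low than in the zona cells, as did 4 of the 5 that were lower and 63 of the 74 meiotic genes tested. The meiotic genes had a median ratio of -0.38 for the high group over the Sohlh1-low cells and -0.71 for the low group, and of 0.91 and 0.49 over the zona cells. The maternal genes had 1.08 and 1.71 over the Sohlh1-low cells, and -2.26 and -2.04 over the zona cells. Other lists had another order, with 0.21 for the high and 0.070 for the low group over the Sohlh1-low cells in the piRNA list, and -0.39 and -0.29 in the checkpoint list.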

How the data were processed

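Libraries were made from single germ cells by Smart-seq2, and ERCC spike-ins had been added. The authors quantified reads with Salmon against mm10 with spike-ins added, correcting for sequence bias, and deposited 1 table per library with the TPM, the estimated counts and the transcript length of each gene symbol. Salmon and FastQC are named in the submitters' processing notes. Members, gene lists and rules were chosen with earlier results of these data known.

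Levels are TPM, and estimated counts gave depth and CPM. Coding genes (19780 symbols) were found by GENCODE M21 and RefSeq. Pairs of libraries correlated at 0.95 or more were averaged as 1 cell. Ratios used means plus 1 TPM and a 2-fold call. Genes were named if in a list, among the 12 largest ratios in each direction (a mean of at least 10 TPM in the higher group, at least 0.1 TPM in 50% of its cells, medians past 1.5-fold, past 2-fold with each cell left out), or among the 10 highest and 10 lowest values of rho. Shares have exact 95% (Clopper-Pearson) intervals. Python 3.11.15, pandas 2.3.3, NumPy 2.4.6, SciPy 1.17.1 and Matplotlib 3.10.9 were used, and the ratios were tested on simulated data. Alternatives were CPM, spike-in scaling, other summaries, filters, cuts and rankings, and each cell left out. Promoters came from RefSeq (GRCm38.p6). Some genes that met these rules are not reported here.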

Additional observations from a re-analysis of the deposited data

How the results depend on the processing

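Without animals or plates in the labels, the spread between animals is unknown. No paired analysis was possible because the cells form 1 group and their numbers only name them. The higher and lower genes were 1411 and 1443; they were 578 and 597 with a mean of at least 10 TPM, 2735 and 2611 at 1.5-fold, 775 and 976 with 2 groups in place of 3, and 971 and 603 with means of log2 values. The meiotic median of 0.33 was 0.46 per spike-in TPM, 0.51 with means of log2 values, 0.46 with medians and 0.21 with 2 groups. That of the follicle factors, -0.10, was 0.20 per spike-in TPM (over the members that pass the filter on that scale), 0.069 with a mean of at least 10 TPM and 0.025 with 2 groups. That of the maternal genes, -0.50, was 0 with medians and -0.83 with 4 groups in place of 3. Per spike-in TPM, 1682 genes were higher and 1149 lower, and the median of all genes was 0.16 in place of 0.052. With each cell left out, the values were 1373 to 1506 higher and 1354 to 1521 lower genes, 0.30 to 0.38 for the meiotic median, -0.14 to -0.04 for the follicle factors and -0.64 to -0.30 for the maternal genes. Among genes of the lists and named genes past 2-fold, the ratio changed sign for Mcmdc2 (-0.060 with medians), Cdkn1b (0.32 with 2 groups, 0.071 ranked within 2 strata of mitochondrial share, 0.11 ranked by CPM) and Bid (-0.039 without the 4 cells that stand apart). The 24 genes named for their ratio had been chosen with medians past 1.5-fold and a call that held with each cell left out. Of these, 18 kept 2-fold with medians, 19 with 2 groups, 21 without the 4 cells, 21 ranked by CPM and 23 ranked within the strata. Ranking by CPM, the use of all 78 libraries, the removal of the 4 cells, the mitochondrial strata and the total without mitochondrial genes were chosen after seeing the data; with 78 libraries the counts were 1322 and 1468.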
